A study of Mus musculus with 71 samples.

Results

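Genes of the Notch pathway and Hes6 were described in mouse oocytes made in culture, in oocyte-like cells induced directly from stem cells and in oocytes grown in the animal. The set was chosen by gene symbol and names 8 genes: the ligand Jag1, the receptors Notch1 and Notch2, the glycosyltransferase Lfng, the nuclear effector Rbpj, the target genes Hes1 and Heyl, and Hes6. Of these, 7 were among the 15140 genes of the table used, and Lfng was not analysed here. The rule itself uses gene symbols and no measured value.

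Oocytes made in vitro, wild type included, derived from stem cells (C57BL/6 X 129) with the reporters Blimp1-Venus and Stella-CFP. Germ cells induced from this line were mixed with somatic cells of female embryonic gonads, all cultures received the oestrogen receptor antagonist ICI182780, and oocytes labelled SC+ were recovered with a cell sorter after 11 or 13 days. Wild-type oocytes of both days, 4 knockouts of day 11 (Lhx8, Figla, Stat3, Sub1) and 15 of day 13 (Nobox, Sohlh1, Tbpl2, Dynll1, Ybx3, Ccnk, Kdm1b, Thap7, Noto, Foxr1, Mef2b, Sfr1, Hes6, Ell3, Tcf25) made up 42 libraries in 21 groups. The labels do not state how many clones stand behind a knockout, and both Sohlh1 columns carry one and the same guide-like tag. Directly induced oocyte-like cells (DIOLs) came from stem cells of genotype MGA8, same strain, kept with Shield1, a small molecule that protects proteins fused to a destabilising domain from breakdown. The labels name neither the genes introduced in MGA8 nor what the S in DIOLs.S stands for. DIOLs.S were taken on days 1, 3, 5, 7 and 14, DIOLs on days 5, 10, 15 and 25, and MII DIOL are DIOLs matured to metaphase II. Per the protocol, DIOLs grown on to maturation were aggregated with female gonadal somatic cells. GV oocytes of the reporter strain, at the germinal vesicle stage, came from the animal. Their labels read comp-GV and incomp-GV, taken here as competent and incompetent. The matching columns of the table also carry the tags 3w for all competent and 2w for all incompetent libraries, which read as ages in weeks. DIOL and GV libraries numbered 26 in 12 groups. Every group held n = 2 libraries, apart from the GV groups with n = 3 each.

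Notch signalling passes between touching cells. A ligand such as Jag1 on one cell binds a receptor such as Notch1 or Notch2 on its neighbour, the receptor's inner part is cut free and enters the nucleus, and there it joins the DNA-binding protein Rbpj to switch on target genes such as Hes1 and Heyl, which encode repressors of transcription. In the mouse ovary, Jag1 is known as a ligand made by oocytes and Notch2 as a receptor of the granulosa cells around them. Hes6 is a relative of Hes1 that is known to oppose Hes1 activity.

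Levels are given as TPM, a unit of transcript abundance that corrects for transcript length and gives every library an equal sum, so levels of different genes can be compared. Read depth is unknown, because TPM keep no totals. Each library showed 8011 to 10596 genes at 1 TPM or more. Across genes, replicates had r of 0.967 to 0.998, and those of the Sohlh1 knockout 0.873. In the Sohlh1 knockout, replicate 2 held 3536 TPM summed over 10 macrophage markers and replicate 1 held 36.8. Of 12 targeted genes in the table, 7 fell in their own knockout. Another 7 targeted genes (Figla, Nobox, Ybx3, Noto, Foxr1, Mef2b and Tcf25) were not in it, so those knockouts rest on their labels alone. Thap7, Sfr1 and Ell3 were lower in their own knockouts (log2 changes -0.75, -0.92 and -1.54) without being called. The libraries labelled Ccnk knockout held 171 ± 10.5 TPM of Ccnk against 168 ± 5.64 in wild type, so directions drawn from them rest on the labels. Those labelled Sub1 knockout held 330.2 ± 20.4 TPM of Sub1 against 464 ± 23.5. That was a small fall (log2 change -0.49 ± 0.09, limma adjusted p = 5.3e-05) that was not called, so their directions rest mainly on the labels. Changes are differences of log2(TPM + 1) ± SE from a limma fit over all genes. A gene rose or fell, and is called, where its Benjamini-Hochberg adjusted p lay under 0.05 with a log2 change of at least 1 in size. Knockouts of a day were all compared with the same 2 wild-type libraries, so their changes are not independent of each other. Whether replicates came from separate cultures is not in the labels, so the p-values speak only of the spread among libraries, which may be technical.

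Promoters are shown for the ligand, the receptors, the nuclear effector and Hes6 because these genes moved between groups and because the pathway's own factors bind known short motifs. Each run holds 250 bases before and 50 after a transcription start from RefSeq (GRCm38.p6), 5′ to 3′ on the gene's strand. Capitals mark the Rbpj core TGGGAA, the E-box CANNTG and the N-box CACNAG, the last 2 known as sites of Hes and other basic helix-loop-helix factors, on either strand.
Jag1 chr2:137116471-137116770 (minus strand): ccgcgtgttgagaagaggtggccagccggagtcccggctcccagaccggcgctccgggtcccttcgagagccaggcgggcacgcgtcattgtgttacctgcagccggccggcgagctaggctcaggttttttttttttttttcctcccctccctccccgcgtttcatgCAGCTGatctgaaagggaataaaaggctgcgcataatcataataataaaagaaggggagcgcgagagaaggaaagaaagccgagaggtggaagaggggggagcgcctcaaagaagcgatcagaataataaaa
Notch1 chr2:26503773-26504072 (minus strand): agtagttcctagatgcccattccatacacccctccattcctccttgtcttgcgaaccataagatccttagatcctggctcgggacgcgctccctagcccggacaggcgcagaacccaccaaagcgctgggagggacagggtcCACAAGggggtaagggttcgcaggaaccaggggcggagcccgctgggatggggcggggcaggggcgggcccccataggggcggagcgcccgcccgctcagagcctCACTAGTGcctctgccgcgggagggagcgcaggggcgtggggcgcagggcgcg
Notch2 chr3:98013288-98013587 (plus strand): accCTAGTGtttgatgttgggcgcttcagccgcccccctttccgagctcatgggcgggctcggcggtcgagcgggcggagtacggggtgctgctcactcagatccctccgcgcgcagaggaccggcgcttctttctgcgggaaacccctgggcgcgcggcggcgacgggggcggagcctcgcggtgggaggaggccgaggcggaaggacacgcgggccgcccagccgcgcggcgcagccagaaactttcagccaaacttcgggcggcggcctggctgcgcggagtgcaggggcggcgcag
Rbpj chr5:53590096-53590395 (plus strand): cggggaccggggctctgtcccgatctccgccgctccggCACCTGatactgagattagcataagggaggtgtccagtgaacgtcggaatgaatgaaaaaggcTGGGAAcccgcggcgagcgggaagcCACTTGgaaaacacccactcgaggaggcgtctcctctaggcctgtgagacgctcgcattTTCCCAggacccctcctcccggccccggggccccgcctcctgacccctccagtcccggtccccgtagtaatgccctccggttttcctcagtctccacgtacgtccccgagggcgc
Hes6 chr1:91413989-91414288 (minus strand): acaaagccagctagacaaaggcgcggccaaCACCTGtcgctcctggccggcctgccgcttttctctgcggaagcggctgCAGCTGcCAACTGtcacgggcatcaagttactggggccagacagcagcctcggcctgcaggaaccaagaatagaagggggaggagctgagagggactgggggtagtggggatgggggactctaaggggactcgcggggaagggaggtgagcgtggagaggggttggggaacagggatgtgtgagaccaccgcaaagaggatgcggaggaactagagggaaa
The Hes6 window shown held 3 E-boxes, at -220, -171 and -164 from its start, and neither an N-box nor an Rbpj core. RefSeq gives Hes6 another start (chr1:91413173-91413472), whose window held 1 E-box at -150, N-boxes at -237 and 15, and no Rbpj core. That of Jag1 held 1 E-box at -82. The Notch1 window held 3 N-boxes, of which those at -3 and -1 overlap, and the Notch2 window held 1 at -247. Rbpj itself had 2 matches to the core of its own site, at -149 and -65, and 2 E-boxes in the window shown. The window of its other RefSeq start (chr5:53590236-53590535) overlaps the first and held 1 Rbpj core, at -205, and no E-box. Over all 32851 RefSeq promoters of this length, 25.6% held the Rbpj core, 72.3% an E-box and 42.5% an N-box, so each motif is common. The homeobox motif TAATTG, present in 8.00% of all promoters, and the Stat motif TTCNNNGAA, present in 8.30%, had no match in any of these windows. A match is a run of letters and not a bound site, and no match says only that the letters are not in this window. A promoter for Hes1 or Heyl was not used here.

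Jag1 changed most often. It fell in 9 of 19 knockouts, in all 4 of day 11 and in 5 of 15 of day 13, and rose in none. The other direction was taken by Hes1, which rose in 5 knockouts of day 13 and fell in 1 of day 11, by Notch1, which rose in 5, and by Heyl, which rose in 6 and fell in 1. Rbpj rose in 3, Notch2 in 2, and Hes6 fell in its own knockout and in that of Dynll1 and rose in none. Over 31 comparisons, 59 of 217 member changes were called.

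These counts have to be read against how many genes changed at all. Between the wild-type groups of days 11 and 13, 5 of the 7 members were called, beside 22.0% of the 12306 genes tested. Among the knockouts of day 11, calls covered 1 member of 7 for Lhx8 (21.9% of all genes), 3 for Figla (28.1%), 2 for Stat3 (27.3%) and 2 for Sub1 (22.8%). On day 13 they covered 5 for Nobox (38.5%), 2 for Sohlh1 (35.7%), 4 for Tbpl2 (29.2%), all 7 for Dynll1 (48.2%) and 4 for Ybx3 (17.9%). Fewer were called where the background was smaller: 1 for Ccnk (6.14%), 2 for Kdm1b (3.19%) and 1, Hes6 itself, for Hes6 (0.593%). No member was called for Thap7 (2.74%), Noto (2.23%), Foxr1 (1.88%), Sfr1 (1.24%), Mef2b (1.08%), Tcf25 (0.504%) or Ell3 (0.114%). For Lhx8, Stat3, Sub1 and Sohlh1 the share of members called was close to the background share. Direction had a background too. Of the calls over all genes, 77.9% were higher for Nobox, 62.6% for Sohlh1, 78.2% for Tbpl2 and 78.3% for Dynll1. For Ybx3, Ccnk and Kdm1b they were 87.6%, 85.2% and 95.2%. Rises of members there took the more common direction, and falls of Jag1 the less common one. After median-of-ratios rescaling these shares ranged from 49.2% to 91.9%.

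**Figure D1:**
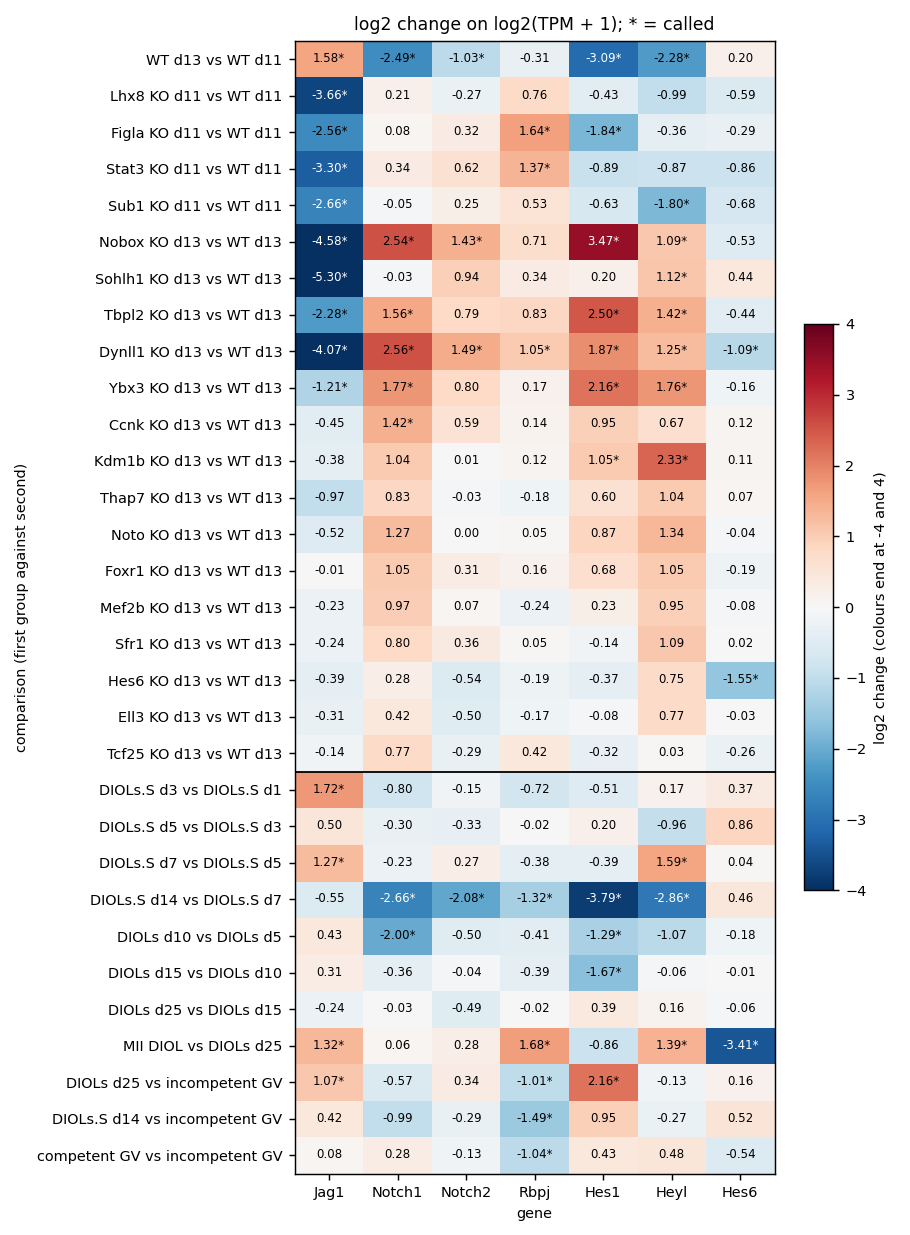
Log2 change on log2(TPM + 1) of the 7 genes (columns) in 31 comparisons (rows, first group against second), blue for lower and red for higher, with colours ending at -4 and 4 and an asterisk on each of the 59 called changes. Jag1 is blue and called in 9 knockouts, while Hes1, Notch1 and Heyl are mostly red in the knockouts of day 13.

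Jag1, the ligand (chromosome 2, 137081456 to 137116644, minus strand, GRCm38), was at 54.1 and 53.2 TPM in wild-type oocytes of day 11 and at 162 and 163 TPM in those of day 13. The later libraries were the higher ones, with no overlap, and Jag1 rose by a log2 change of 1.58 ± 0.21 (adjusted p = 8.8e-07). In the Lhx8 knockout, which lacks a homeobox factor of early oocytes, it was at 2.76 and 3.95 TPM (log2 change -3.66 ± 0.21, adjusted p = 1.1e-13). In the Stat3 knockout it was at 4.08 and 5.04 TPM (-3.30 ± 0.21, adjusted p = 6.6e-13). Both knockouts stood far under the wild type of their day. The Figla knockout, without a basic helix-loop-helix factor of early oocytes, held 9.27 and 7.35 TPM (-2.56 ± 0.21, adjusted p = 1.5e-10). In the libraries labelled Sub1 knockout Jag1 was at 11.9 and 4.77 TPM (-2.66 ± 0.21, adjusted p = 1e-10). None of these 8 knockout libraries reached a wild-type library of day 11. Macrophage markers, 10 in the table, summed to 28.0 to 45.2 TPM in that wild type, 43.9 to 51.1 in the Stat3 knockout, 400.3 to 431 in that of Lhx8, 456 to 468 in that of Figla and 3066 to 3131 in the Sub1-labelled libraries. Their part in the changes of Jag1 and the other members in these knockouts was not tested.

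On day 13, Jag1 was lowest in the Sohlh1 knockout, at 3.64 and 2.71 TPM (log2 change -5.30 ± 0.21, adjusted p = 4.8e-17). Sohlh1 is a transcription factor of early oocytes. Its 2 knockout libraries were alike in Jag1 and differed in macrophage markers. They also differed in stroma and matrix markers, which summed to 106 TPM in replicate 1 and 2272 in replicate 2. The part of these markers was not tested. The Nobox knockout, lacking an oocyte homeobox factor, held 5.86 and 5.81 TPM (-4.58 ± 0.21, adjusted p = 7.6e-16). The Dynll1 knockout, lacking a dynein light chain, held 8.95 and 8.57 TPM (-4.07 ± 0.21, adjusted p = 5.6e-15). Intermediate levels were found in the other 2 knockouts with a call. In the Tbpl2 knockout, without an oocyte form of the TATA-binding protein, Jag1 was at 31.9 and 33.6 TPM (-2.28 ± 0.21, adjusted p = 1.4e-09). In the Ybx3 knockout it was at 76.9 and 63.2 TPM (-1.21 ± 0.21, adjusted p = 5.2e-05). The Thap7 knockout, at 80.7 and 84.1 TPM, had a log2 change of -0.97 ± 0.21 (adjusted p = 0.0044), just under the size needed for a call, and was called after median-of-ratios rescaling (-1.10) or without Thap7 knockout replicate 2. In the 11 knockouts of day 13 other than Nobox, Sohlh1, Tbpl2 and Dynll1, the 22 libraries ranged from 63.2 to 162 TPM with a median of 127. In the order of Jag1 means, 16 of 32 neighbouring pairs of groups did not overlap, against 2 to 11 for the other 6 genes. With so few libraries per group, small gaps count too, the genes differ in level, and the share over all genes was not computed. No trait of Jag1 is drawn from these counts.

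Jag1 went with oocyte markers. The sum over 11 oocyte markers in the table, zona pellucida genes Zp1 and Zp3 and the growth factor Gdf9 among them, but also the targeted genes Lhx8 and Sohlh1, was 10516 to 10689 TPM in wild type of day 11 and 59861 to 61369 TPM on day 13. In the 4 knockouts of day 11 the sum was 1487 to 2800 TPM, and in the Sohlh1, Nobox and Dynll1 knockouts 1657 to 4199 TPM. Over the 21 in vitro groups, log2 means of Jag1 and of this sum correlated at r = 0.97, a description over groups that share wild-type controls, cell source and sort. Over the 12 DIOL and GV groups r was 0.68. In bulk RNA, fewer cells of a type and less RNA per cell cannot be told apart.

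**Figure D2:**
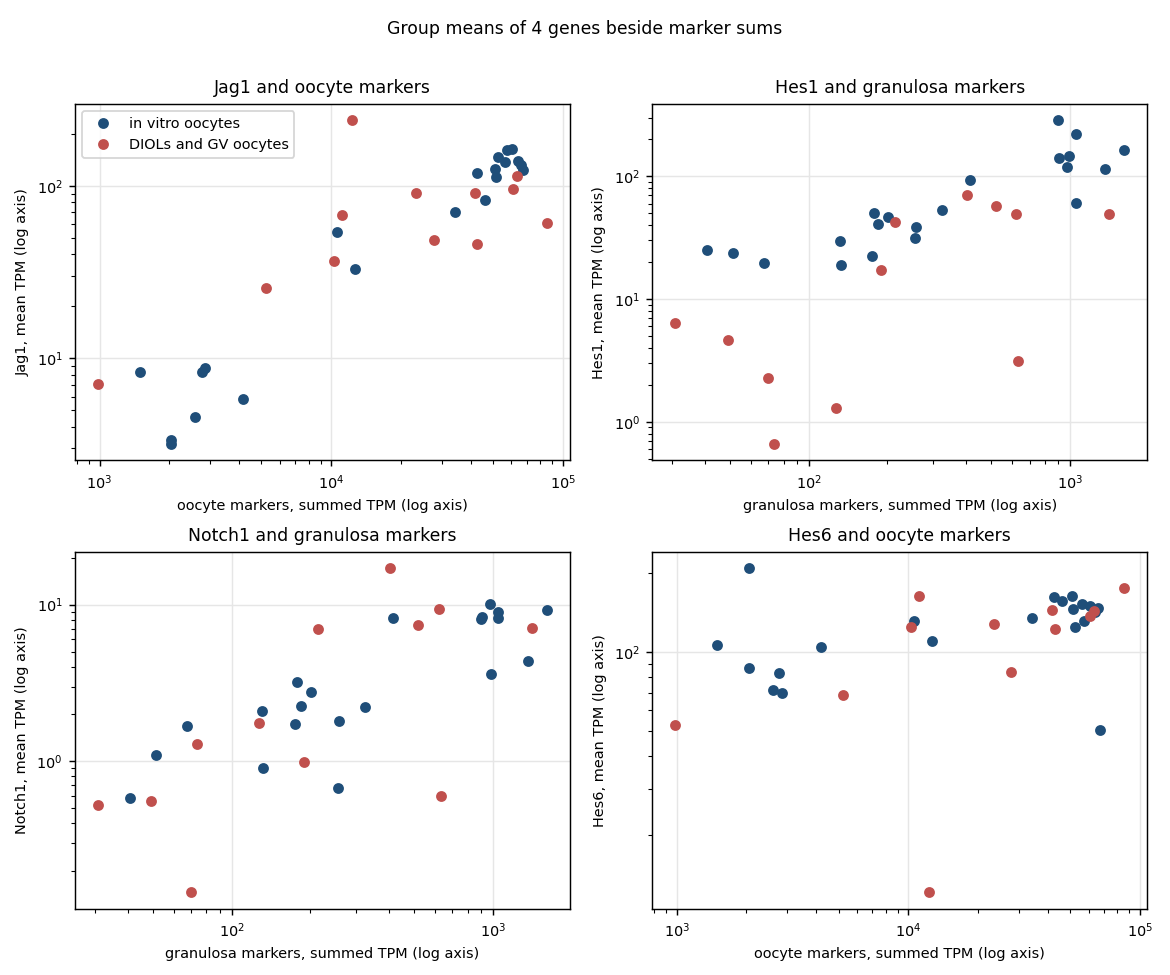
Mean TPM of Jag1, Hes1, Notch1 and Hes6 (vertical, log axis) against TPM summed over oocyte or granulosa markers (horizontal, log axis), 1 point per group, with 21 in vitro groups in blue and 12 DIOL and GV groups in red. Among in vitro groups Jag1 climbs with the oocyte sum and Hes1 and Notch1 climb with the granulosa sum, and Hes6 has r = 0.37 with the oocyte sum in vitro.

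The receptors were at 26.8 TPM or less in every library. Notch2 (chromosome 3, 98013527 to 98150361, plus strand) was at 18.5 and 15.2 TPM in wild type of day 11 and at 7.57 and 7.73 TPM on day 13, a log2 change of -1.03 ± 0.24 (adjusted p = 0.0009). That call ended after rescaling (-0.64) and without day 11 wild-type replicate 1 (-0.90). It was at 22.2 and 22.4 TPM in the Nobox knockout (1.43 ± 0.24, adjusted p = 1.1e-05). In the Dynll1 knockout it was at 22.6 and 23.8 TPM (1.49 ± 0.24, adjusted p = 4.9e-06). Both knockouts exceeded wild type of day 13 in every library and also those of day 11, but after rescaling both changes were 0.89 and no longer called. The day 11 Stat3 knockout had the highest Notch2 of all 33 groups, 26.3 ± 0.79 TPM (SD, n = 2), with a log2 change of 0.62 ± 0.24 (adjusted p = 0.034) that did not reach a call. In the Sohlh1 knockout the 2 libraries differed, at 10.8 and 22.3 TPM, as stroma and macrophage markers did, and the change of 0.94 ± 0.24 was not called, except without replicate 1 (1.43) or with a pseudocount of 0.1 (1.01). In vivo GV oocytes were near the bottom, between 2.06 and 3.54 TPM.

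Notch1 (chromosome 2, 26457903 to 26516663, minus strand) was at 4.23 and 13.8 TPM in wild type of day 11 and at 0.84 and 0.33 TPM on day 13. The day 11 libraries disagreed by more than those of any knockout of day 13, yet both exceeded the later ones (log2 change -2.49 ± 0.40, adjusted p = 1.8e-05). On day 13 it was at 7.51 and 8.71 TPM in the Nobox knockout (2.54 ± 0.40, adjusted p = 6.8e-06). The Dynll1 knockout held 8.73 and 7.73 TPM (2.56 ± 0.40, adjusted p = 4.5e-06). These 2 knockouts had the highest Notch1 of day 13, and smaller rises were found in 3 others. Notch1 was at 5.14 and 3.61 TPM in the Ybx3 knockout (1.77 ± 0.40, adjusted p = 0.0012). It was at 3.65 and 3.59 TPM in the Tbpl2 knockout (1.56 ± 0.40, adjusted p = 0.0023). The libraries labelled Ccnk knockout held 3.38 and 3.02 TPM (1.42 ± 0.40, adjusted p = 0.015), and this call ended when either of them, or wild-type replicate 2, was left out (1.19 to 1.49). Unlike the others, the Sohlh1 knockout held 1.34 and 0 TPM, on both sides of wild type. No knockout of day 11 was called for Notch1: their means lay between 8.28 and 10.2 TPM beside 8.99 ± 6.73 (SD, n = 2) in wild type. Without wild-type replicate 2 the Stat3 knockout was called higher (1.09). The annotated genes 0610009E02Rik and Gm13568 overlap Notch1 on the opposite strand. The libraries kept strand, but the strand setting of the counting is not given in the sources used here, so reads of the 2 strands may be mixed.

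Rbpj, the DNA-binding partner of the freed receptor (chromosome 5, 53466152 to 53657362, plus strand), was at 10.5 and 10.8 TPM in wild type of day 11 and at 10.4 and 6.78 TPM on day 13. It rose in the Figla knockout to 33.0 and 37.8 TPM (log2 change 1.64 ± 0.28, adjusted p = 2.5e-05). In the Stat3 knockout it rose to 31.0 and 27.4 TPM (1.37 ± 0.28, adjusted p = 0.0002). All 4 libraries stood above every other in vitro library. In the Dynll1 knockout it was at 20.4 and 16.7 TPM (1.05 ± 0.28, adjusted p = 0.0018), a call that ended after rescaling (0.45) and on leaving out replicate 1 of that knockout (0.91) or wild-type replicate 2 (0.77). Lhx8 knockout oocytes held 20.8 and 16.9 TPM, with a change of 0.76 ± 0.28 that was not called, and the Tbpl2 knockout was called on leaving out wild-type replicate 1 (1.11). Rbpj has processed pseudogenes, Rbpj-ps1 and Rbpj-ps3, and the antisense genes Gm10441 and Gm40304 overlap it, so its level is uncertain where the counting could not split their reads.

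Hes1, the best known target of the pathway (chromosome 16, 30064384 to 30067796, plus strand), reached the highest level of the 7 genes in culture. It was at 239 and 201 TPM in wild type of day 11 and at 23.8 and 26.1 TPM on day 13, a log2 change of -3.09 ± 0.22 (adjusted p = 2.5e-11). In the Nobox knockout of day 13 it was at 293 and 282 TPM, above the wild-type libraries of both days (3.47 ± 0.22, adjusted p = 8.4e-13). In the Tbpl2 knockout it was at 134 and 158 TPM (2.50 ± 0.22, adjusted p = 9.3e-10). These levels were several times that of wild type of the same day and did not overlap it. The Ybx3 knockout, lacking a cold-shock protein that binds RNA, held 115 and 115 TPM (2.16 ± 0.22, adjusted p = 2.2e-08). The Dynll1 knockout held 90.3 and 97.8 TPM (1.87 ± 0.22, adjusted p = 5.3e-08). A smaller rise was found without Kdm1b, a histone demethylase of growing oocytes, where Hes1 was at 49.7 and 56.1 TPM (1.05 ± 0.22, adjusted p = 0.0034). That call ended after rescaling (0.93) and without wild-type replicate 1 or Kdm1b knockout replicate 2 (0.99 and 0.96). In the Sohlh1 knockout Hes1 was at 44.9 and 18.4 TPM, on both sides of wild type. In the other 8 knockouts of day 13 apart from that of Hes6, group means ran from 19.9 to 49.9 TPM and none was called, although Hes1 in the libraries labelled Ccnk knockout was called on leaving out Ccnk replicate 2 or wild-type replicate 2.

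On day 11 no knockout exceeded wild type in Hes1. The Figla knockout held 56.9 and 64.4 TPM (log2 change -1.84 ± 0.22, adjusted p = 1.7e-07). The Stat3 knockout, at 125 and 111 TPM, had a change of -0.89 ± 0.22 (adjusted p = 0.0017), under the size for a call, and of -1.05 after rescaling or -1.01 without wild-type replicate 2, which made it one. The Sub1-labelled libraries held 143 and 141 TPM (-0.63 ± 0.22, adjusted p = 0.026). All 6 of these libraries were below both wild-type libraries, and those without Lhx8, at 154 and 172 TPM, were too.

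Heyl, a further target (chromosome 4, 123233556 to 123249875, plus strand), was at 5.69 TPM or less in every in vitro library. It was at 4.20 and 4.68 TPM in wild type of day 11 and at 0 and 0.26 TPM on day 13 (log2 change -2.28 ± 0.44, adjusted p = 0.00016). The Kdm1b knockout had the highest Heyl of day 13, 5.69 and 3.79 TPM (2.33 ± 0.44, adjusted p = 0.0011), and the Ybx3 knockout held 2.21 and 3.51 TPM (1.76 ± 0.44, adjusted p = 0.0028). Both calls held on leaving out any library. Rises of 1.09 to 1.42 in the Nobox, Sohlh1, Tbpl2 and Dynll1 knockouts (adjusted p from 0.0097 to 0.037) each ended without day 13 wild-type replicate 1 (0.93 to 1.25). They also ended without Nobox knockout replicate 1 (0.43), Sohlh1 knockout replicate 2 (0.47), Tbpl2 knockout replicate 2 (1.04) or Dynll1 knockout replicate 2 (1.05), and for Nobox and Sohlh1 without wild-type replicate 2 (1.26 and 1.29). After rescaling, those of Nobox (0.90) and Dynll1 (0.9995) were not called either. The fall in the Sub1-labelled libraries, at 0 and 1.44 TPM (-1.80 ± 0.44, adjusted p = 0.0017), ended without Sub1 knockout replicate 1 (-1.16). At such levels the pseudocount of 1 understates changes, and single libraries decide the call.

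**Figure D3:**
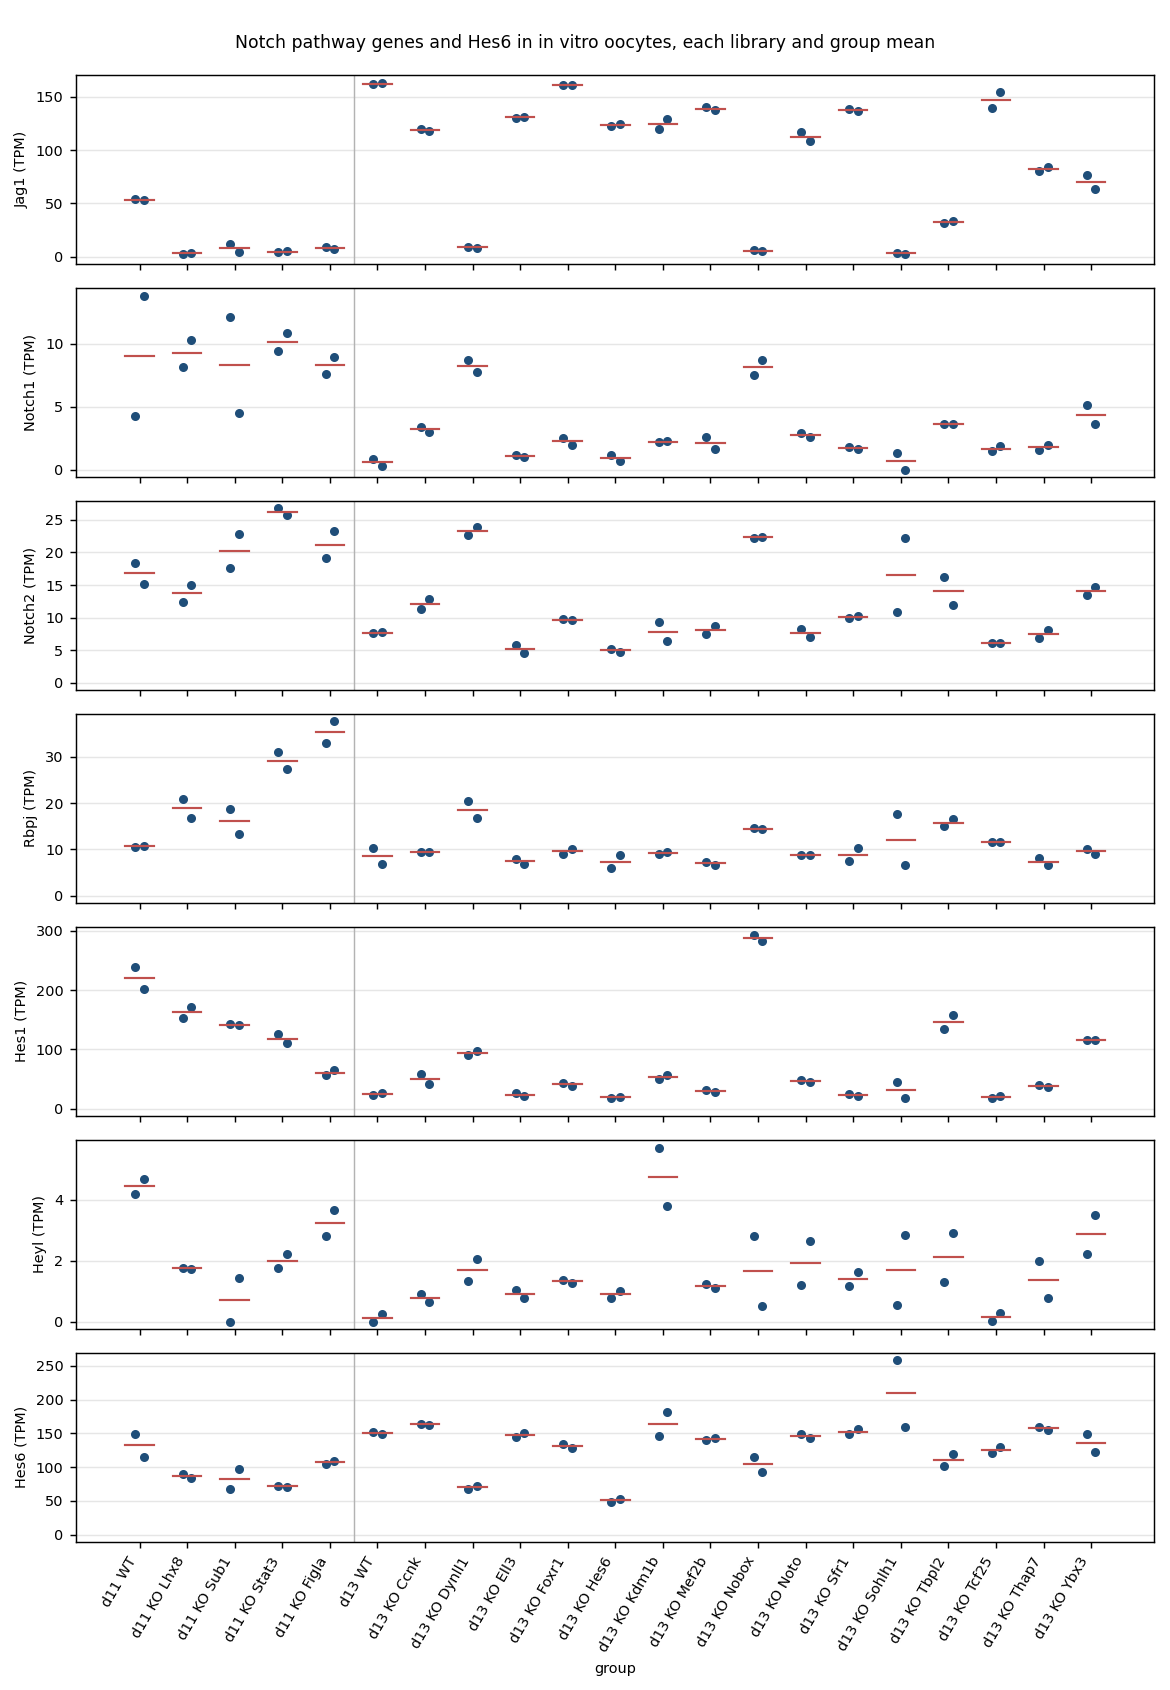
TPM (vertical) of the 7 genes, 1 panel each, in the 42 in vitro libraries (points) with group means (red lines) for 21 groups, day 11 left of the grey line and day 13 right of it. Jag1 sits at 12 TPM or less in 7 knockout groups, Hes1 is highest in the Nobox knockout, and Hes6 is lowest in its own.

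Granulosa and stroma markers moved with Hes1, Notch1 and Notch2 in vitro. Summed over the 15 granulosa and gonadal somatic markers in the table, the Anti-Müllerian hormone gene Amh, its receptor Amhr2 and the inhibin subunit Inha among them, wild type held 1029 to 1070 TPM on day 11 and 39.6 to 41.8 TPM on day 13, and 13 of 14 tested fell. In the same libraries 9 stroma and matrix markers went from 512 to 550.4 TPM down to 10.4 to 14.0 TPM. Myl9, a myosin light chain gene, made up 428 of their mean of 531 TPM on day 11. The day 13 wild type had the lowest granulosa sum of the 21 in vitro groups. The knockouts of day 13 in which Hes1 rose held 891 to 904 TPM (Nobox), 932 to 1042 (Tbpl2), 1331 to 1392 (Ybx3), 399 to 430.1 (Dynll1) and 322 to 328 (Kdm1b), and 12, 13, 12, 12 and 9 of the 14 markers rose. Over the 21 in vitro groups, log2 means of the granulosa sum correlated with those of Hes1 at r = 0.88, of Notch1 at 0.84 and of Notch2 at 0.78, as a description. In the same order, r with the stroma sum was 0.71, 0.64 and 0.77. With the endothelial sum it was 0.17, 0.24 and 0.54, and with the macrophage sum 0.03, 0.08 and 0.28. With the oocyte sum it was -0.64, -0.71 and -0.87. Between the Nobox and Ybx3 knockouts, Hes1 was higher in the first and the granulosa sum in the second. In the Figla knockout, where Hes1 fell, the sum of 1041 to 1059 TPM lay within the range of wild type of day 11. Granulosa and stroma markers are a measured feature of these sorted libraries, and their part in the levels of Hes1, Notch1 and Notch2 was not tested. Endothelial markers, 9 in the table, summed to 12.4 to 15.1 TPM over the wild-type libraries of both days. They summed to 71.6 to 89.7 TPM in the Nobox and 74.2 to 78.9 TPM in the Dynll1 knockout, which had the highest Notch1 of day 13. In the other knockouts where Notch1 rose they had means of 19.3 TPM (Tbpl2), 11.7 (Ybx3) and 14.7 (Ccnk), and in the Sohlh1 knockout, with Notch1 at 1.34 and 0 TPM, at 134 to 145.8. Their part in the level of Notch1 was not tested.

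Hes6 (chromosome 1, 91411483 to 91414038, minus strand) ranged from 48.9 to 259 TPM over the in vitro libraries, where Hes1 ranged from 18.4 to 293. It was at 149 and 115 TPM in wild type of day 11 and at 152 and 148 TPM on day 13, with a change of 0.20 ± 0.17 (adjusted p = 0.39). In its own knockout it fell to 48.9 and 52.3 TPM (-1.55 ± 0.17, adjusted p = 3.2e-06), the lowest in vitro level, and RNA of the gene remained. How the gene was disrupted is not given in the sources used here. The Dynll1 knockout held 68.1 and 71.5 TPM (-1.09 ± 0.17, adjusted p = 2.6e-06), and no other knockout was called. Lower levels that passed the p-value limit but not that of size were found in the Stat3 knockout at 72.6 and 70.8 TPM (-0.86 ± 0.17, adjusted p = 0.00012). The same held for the Sub1-labelled libraries at 68.1 and 97.7 TPM (-0.68 ± 0.17, adjusted p = 0.0018) and the Lhx8 knockout at 89.3 and 84.2 TPM (-0.59 ± 0.17, adjusted p = 0.006). It held too for Nobox at 115 and 93.3 TPM (-0.53 ± 0.17, adjusted p = 0.0084) and Tbpl2 at 102 and 119 TPM (-0.44 ± 0.17, adjusted p = 0.031). In all 5 groups both libraries were below both wild-type libraries of their day. Hes6 was called lower as well in the Nobox knockout after rescaling (-1.11) and in that of Stat3 after rescaling (-1.01) or without day 11 wild-type replicate 2 (-1.04). The Sohlh1 knockout held the highest Hes6 of all groups, 259 and 160 TPM, which differed between its 2 libraries, and its change of 0.44 ± 0.17 was not called. In the order of Hes6 means, 28 of 32 neighbouring groups overlapped, so the rank of a group beside its neighbours is mostly not settled. Neighbours in such an order are the closest groups, so the count says nothing of groups further apart. The share over all genes was not computed.

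In the Hes6 knockout no other member was called. Hes1 was at 18.5 and 19.7 TPM beside 23.8 and 26.1 in wild type (log2 change -0.37), Jag1 at 123 and 124 TPM beside 162 and 163 (-0.39), and Notch2 at 5.22 and 4.67 TPM beside 7.57 and 7.73 (-0.54). The adjusted p were 0.59, 0.47 and 0.31. Of 61 pathway genes tested, Dtx3, an E3 ubiquitin ligase of the Deltex family, rose and Hes6 fell, beside 0.593% of all genes called. Dtx3 had a mean of 5.72 TPM in the Hes6 knockout and 1.17 in wild type of day 13. In the Hes6 knockout granulosa markers summed to 127 to 137 TPM and stroma markers to 60.4 to 62.2 TPM. In wild type of day 13 these sums were 39.6 to 41.8 and 10.4 to 14.0 TPM. The part of these markers in the level of Dtx3 was not tested.

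DIOLs.S showed Jag1 climbing early. Jag1 was at 7.36 and 6.78 TPM on day 1, 26.8 and 24.4 on day 3, 39.6 and 33.6 on day 5, 79.2 and 101 on day 7, and 58.9 and 62.5 on day 14. Each day to day 7 stood above the one before without overlap. It rose from day 1 to 3 (log2 change 1.72 ± 0.18, adjusted p = 2e-07), the 1 member called there beside 20.9% of the 11603 genes tested. From day 3 to 5 no member was called (7.95% of all genes), Hes6 having a change of 0.86 ± 0.11 (adjusted p = 7.4e-06). From day 5 to 7 calls covered 2 members (8.06% of all genes): Jag1 (1.27 ± 0.18, adjusted p = 4.1e-05) and Heyl, whose change of 1.59 ± 0.45 came from 12.4 TPM in 1 library beside 3.18 in the other. The Heyl call ended without either day 5 library (1.53 and 1.64) or without day 7 replicate 1 (0.74). Without that day 7 library Hes1 was called lower instead (-1.15).

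From day 7 to 14 of DIOLs.S, 5 of 7 members fell, beside 40.5% of all genes called. Hes1 went from 73.5 and 24.9 TPM to 1.45 and 3.12 TPM (log2 change -3.79 ± 0.38, adjusted p = 3.1e-08). Notch1 went from 10.8 and 3.37 TPM to 0 and 0.29 TPM (-2.66 ± 0.31, adjusted p = 2.4e-07). Notch2 went from 16.2 and 9.84 TPM to 2.34 and 2.10 TPM (-2.08 ± 0.22, adjusted p = 5.9e-08). Receptors and target thus reached very low levels, with day 14 below day 7 in every library. Rbpj went from 12.6 and 14.3 TPM to 4.78 and 4.77 TPM (-1.32 ± 0.12, adjusted p = 1.3e-08), a call that ended after rescaling (-0.88), and Heyl from 12.4 and 3.18 to 0 and 0.07 TPM (-2.86 ± 0.45, adjusted p = 1.2e-05). Day 7 replicate 1 held more of Hes1, Notch1, Notch2 and Heyl than replicate 2, and its granulosa markers summed to 2259 TPM against 557 TPM. On day 14 that sum was 55.2 to 84.8 TPM. Stroma markers summed to 77.2 to 313 TPM on day 7 and 5.39 to 10.1 on day 14. Without day 7 replicate 1 the falls were smaller and still called (Hes1 -3.03, Notch1 -1.94, Notch2 -1.75). The part of the somatic markers was not tested. Hes6 was at 54.9 and 50.2 TPM on day 1, 67.6 and 69.2 on day 3, 123 and 127 on day 5, 125 and 130.3 on day 7 and 181 and 172 on day 14. No step between neighbouring days was called for Hes6, although only days 5 and 7 overlapped.

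In DIOLs, Hes1 was at 40.1 and 45.5 TPM on day 5, 13.8 and 20.4 on day 10, 5.56 and 3.80 on day 15 and 6.55 and 6.19 on day 25. It fell from day 5 to 10 (log2 change -1.29 ± 0.38, adjusted p = 0.0069), as did Notch1, from 6.95 and 6.95 to 1.17 and 0.82 TPM (-2.00 ± 0.31, adjusted p = 2e-05). These were 2 members of 7 called beside 23.1% of all genes, again a share close to the background. Hes1 fell again from day 10 to 15 (-1.67 ± 0.38, adjusted p = 0.0043), the 1 member called beside 3.64% of all genes, and from day 15 to 25 none was (7.57%). Both Hes1 calls depended on single libraries: the first ended without day 10 replicate 1 (-1.03) and after rescaling (-0.99), the second without day 10 replicate 2 (-1.40) or day 15 replicate 2 (-1.44). Over the same days stroma markers summed to 461 to 468 TPM on day 5, 9.39 to 13.2 on day 10 and at most 4.46 on day 15, macrophage markers to 631 to 655, 60.2 to 63.3 and 47.5 to 47.8 TPM, and endothelial markers to 29.5 to 33.4, 8.36 to 11.7 and 13.0 to 14.1 TPM. The granulosa list summed to 212 to 217, 145 to 232 and 39.9 to 58.4 TPM, of which the keratin Krt18 made up a mean of 174, 133 and 24.2 TPM, while Amhr2 and Wt1 were at means of 0.63 or less. The part of these markers was not tested. Hes6 kept between 129 and 177 TPM and Jag1 between 66.3 and 122 TPM in all 8 libraries.

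MII DIOL stood apart. Jag1 was at 235 and 246 TPM, its highest level in any of the 33 groups, against 105 and 87.1 TPM in DIOLs of day 25 (log2 change 1.32 ± 0.18, adjusted p = 1.5e-06). Hes6 was at 13.0 and 11.1 TPM, its lowest, against 146 and 129 TPM (-3.41 ± 0.11, adjusted p = 6.3e-17). Rbpj was at 26.8 and 23.4 TPM against 7.21 and 6.97 TPM (1.68 ± 0.12, adjusted p = 7.2e-11). These moves were large in a comparison where much else changed: 4 members of 7 were called beside 57.6% of all genes, a like share. Heyl was the fourth, at 0.64 and 4.38 TPM (1.39 ± 0.45, adjusted p = 0.0088), and lost the call without MII replicate 2 (0.53) or day 25 replicate 2. Hes1, not called, was called lower without MII replicate 2 (-1.18). After rescaling, which shifted this comparison by -0.98 on the log2 scale, Notch2 was called higher as well (1.13). MII DIOL held 458 to 804 TPM of granulosa markers, mostly Gata4, Inha, Hsd3b1 and Fst, while the defining markers Amh and Wt1 were at 0.95 TPM or less. Oocyte markers summed to 12107 to 12506 TPM in MII DIOL and to 60642 to 60857 TPM on day 25.

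Set beside incompetent GV oocytes from the animal, DIOLs of the last days had less Rbpj. Rbpj was at 15.3, 16.3 and 14.4 TPM in incompetent GV oocytes and at 7.34, 6.25 and 7.26 TPM in competent ones, a log2 change of -1.04 ± 0.10 (adjusted p = 5.4e-08). It was the 1 member called there beside 9.96% of all genes. DIOLs of day 25 held 7.21 and 6.97 TPM, within the range of the competent oocytes, and differed from incompetent oocytes by -1.01 ± 0.11 (adjusted p = 1.7e-07). DIOLs.S of day 14 were lower still (-1.49 ± 0.11, adjusted p = 4.2e-10), the 1 member called beside 31.1% of all genes. Notch1 in DIOLs.S of day 14 had -0.99 ± 0.28 and was called lower without day 14 replicate 2 (-1.18) or incompetent replicate 3 (-1.13), and Hes1 was called higher without day 14 replicate 1 (1.32) or incompetent replicate 2 (1.01). The competent call ended after rescaling (-0.97) and without competent replicate 2 or incompetent replicate 2, and that for day 25 without day 25 replicate 2 or incompetent replicate 2, all at changes between -0.99 and -0.97. Against incompetent oocytes, DIOLs of day 25 had 3 members called beside 26.3% of all genes, the other two being Hes1 and Jag1. Hes1 was at 0.74, 0.79 and 0.44 TPM in incompetent oocytes and 6.55 and 6.19 TPM in DIOLs (2.16 ± 0.34, adjusted p = 1.8e-05). Jag1 was at 55.9, 48.3 and 34.2 TPM and 105 and 87.1 TPM (1.07 ± 0.17, adjusted p = 1.6e-05), a call that ended without incompetent replicate 3 (0.87) or day 25 replicate 1 (0.93). Hes6 was at 134, 119 and 115 TPM in incompetent and 74.7, 87.3 and 89.9 TPM in competent oocytes, without overlap, at a change of -0.54 ± 0.09 (adjusted p = 3.2e-05) that was under the size for a call. For this gene and for Rbpj, competence and the tags 2w and 3w cannot be told apart.

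**Figure D4:**
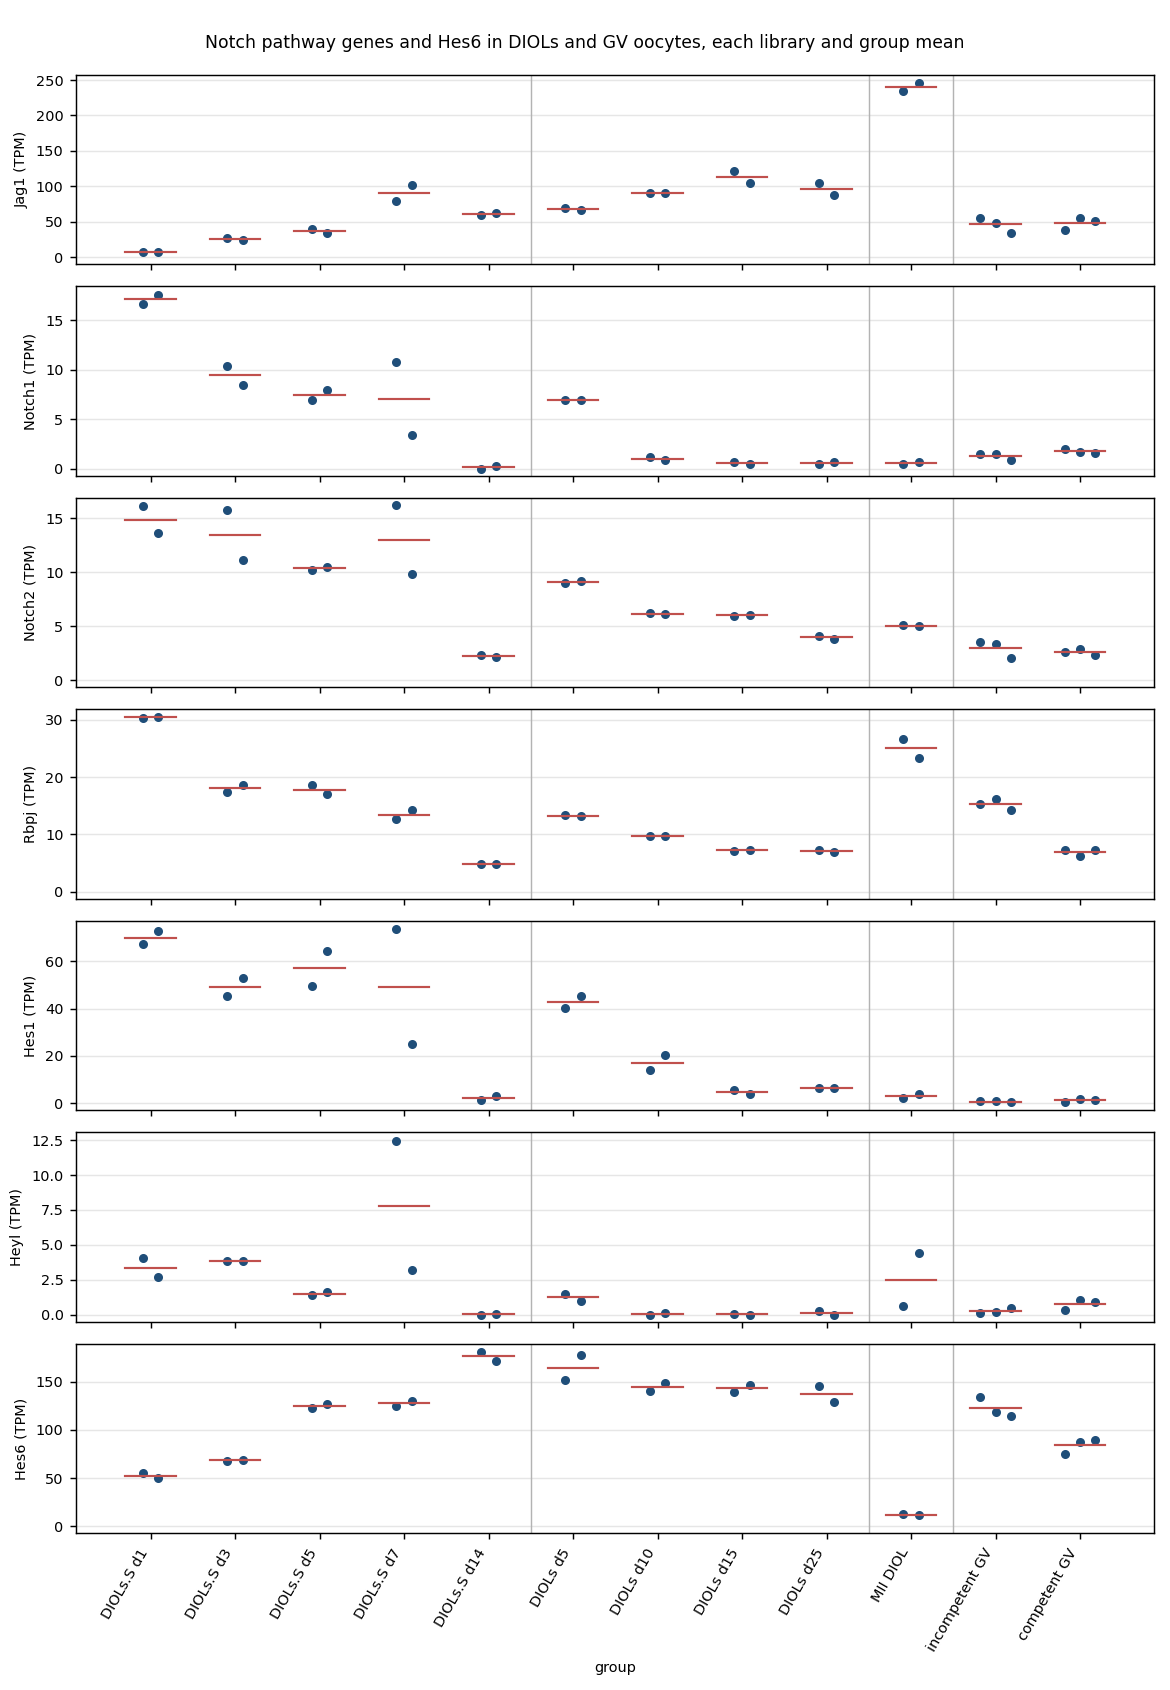
TPM (vertical) of the 7 genes, 1 panel each, in the 26 DIOL and GV libraries (points) with group means (red lines) for 12 groups; grey lines part DIOLs.S, DIOLs, MII DIOL and GV oocytes. Hes1, Notch1 and Notch2 are low on day 14 of DIOLs.S. In DIOLs, Notch1 is low from day 10 and Hes1 from day 15. Notch2 there declines in steps that were not called, from a mean of 9.1 TPM on day 5 to 4.0 on day 25. MII DIOL are highest in Jag1 and lowest in Hes6.

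The rest of the pathway was followed through a list of 79 genes, of which 62 were in the table, the 7 members included. From day 11 to day 13 of wild type, 5 of 61 tested rose and 15 fell, at a median log2 change of -0.49 beside -0.24 over all genes, of which 22.0% were called. The largest change was that of Dtx3, from 90.3 ± 6.96 to 1.17 ± 0.60 TPM, and the related Dtx1 went from 10.5 ± 1.07 to being listed at 0. In the Nobox knockout 25 rose and 7 fell (median 0.73 beside 0.52, with 38.5% of all genes called), in that of Dynll1 32 and 8 (1.16 beside 0.69, 48.2%) and in that of Tbpl2 17 and 6 (0.48 beside 0.36, 29.2%). These splits depend on the scaling: after rescaling they were 7 and 11 for wild type, 15 and 12 for Nobox, 21 and 12 for Dynll1 and 13 and 8 for Tbpl2. Over all genes the share of calls that were higher went from 25.0% to 46.0%, from 77.9% to 57.3%, from 78.3% to 58.3% and from 78.2% to 57.7% in these 4 comparisons.

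Ligands other than Jag1 took their own courses. Jag2, at 223 ± 15.8 TPM in wild type of day 11 above Jag1, fell in the Lhx8 knockout to 42.8 ± 6.74 TPM (log2 change -2.36 ± 0.13, adjusted p = 3e-14), and in MII DIOL to 18.3 ± 0.78 TPM from 262 ± 9.71 TPM, where Jag1 rose. Dll1, a Delta ligand, rose in the Nobox knockout to 56.7 ± 2.23 TPM from 2.07 ± 0.15 (4.23 ± 0.30, adjusted p = 8.3e-12). Of the receptors, Notch3 rose in the Dynll1 knockout (9.07 ± 0.21 TPM against 1.08 ± 0.16) along with the other 3 of the list. In that comparison 48.2% of all genes were called, and 78.3% of those calls were higher. Notch2 lost its call there after rescaling (0.89). Among enzymes that add sugars to the receptors, Poglut1 rose in the Dynll1 knockout (46.5 ± 4.55 against 3.04 ± 1.10 TPM), and Mfng, a Fringe enzyme like Lfng, fell in MII DIOL (1.76 ± 0.95 against 52.9 ± 7.85 TPM). Among corepressors, Tle6, known for its place in the oocyte's subcortical maternal complex rather than in Notch signalling, was at 4043 ± 46.8 TPM in wild type of day 13 and 25.5 ± 18.1 in the Sohlh1 knockout. Hdac1, a histone deacetylase, rose in the Figla knockout to 119 ± 19.9 TPM from 8.22 ± 2.38. Of the Hes and Hey family, Hes7 and Hes3 were listed at 0 in wild type of day 11 and were at 9.69 ± 2.18 and 12.3 ± 1.86 TPM in the Stat3 knockout, and Hey2 rose in MII DIOL to 27.1 ± 0.62 TPM from 1.57 ± 0.29.

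In the DIOL and GV fit 58 pathway genes were tested. From day 7 to 14 of DIOLs.S 3 rose and 27 fell (median log2 change -0.93 beside -0.51 over all genes), or 6 and 18 after rescaling. Of all genes 40.5% were called there, and of those calls 19.2% were higher, or 39.7% after rescaling. From day 5 to 10 of DIOLs none rose and 15 fell (-0.46 beside -0.34), or 2 and 11 after rescaling, where 23.1% of all genes were called and 16.9% of those calls, or 29.4% after rescaling, were higher. Among them, Dll1 went from 16.6 ± 1.32 to 0.91 ± 0.02 TPM and Notch3 from 13.1 ± 0.98 to 1.01 ± 0.18 TPM. In MII DIOL 14 rose and 20 fell (-0.31 beside -0.39), or 21 and 17 after rescaling, a share close to the 57.6% of all genes called, of which 34.4%, or 52.2% after rescaling, were higher. Here Psen2, a catalytic part of the γ-secretase that frees the receptor's inner part, went from 142 ± 17.2 to 6.52 ± 2.20 TPM.

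Genes with the most similar pattern were sought by Pearson r of log2 means over all 33 groups among 9719 genes. They were H2-Ke6 (0.90), Ppp1r11 (0.88) and Atp5e (0.87) for Hes6, and Dnah9 (0.94), E330034G19Rik (0.93) and Slc6a7 (0.93) for Jag1. For Hes1 they were Clk4, Zfp292 and Malat1 (0.94 to 0.95), for Notch2 Map3k1, Cblb and Cpt1a (0.95 to 0.96), for Notch1 Sema4g, Tbc1d16 and Dancr (0.93 to 0.95) and for Rbpj Tardbp, Lrrc58 and Khsrp (0.89 to 0.91). Among the members themselves, Jag1 and Notch2 correlated at r = -0.82 and Hes1 and Notch1 at 0.87 over the 21 in vitro groups, and Hes1 and Notch2 at 0.94 over the 12 DIOL and GV groups. Over the 21 in vitro groups Hes6 had no r beyond -0.48 with any other member. Over the 12 DIOL and GV groups its r with Rbpj was -0.64. These values describe group means that share libraries, source cells and somatic content.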

How the data were processed

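Libraries of polyadenylated RNA that keep strand went through STAR 2.6.0, then featureCounts 1.6.0, with mm10 as the genome, per the submitters' processing notes. The deposited table holds TPM made by the authors. How multimapping reads and strand were counted is not given in the sources used here. Of 15163 rows, 1 incomplete row and 22 rows named as dates were left out. Columns were matched to 68 libraries by title, 3 samples matched no column and 80 columns were not used.

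In R 4.3.3, limma 3.58.1 (trend and robust) tested log2(TPM + 1) in 1 fit for the 42 in vitro libraries (21 residual degrees of freedom) and 1 for the 26 DIOL and GV libraries (14). Genes needed 1 TPM in 2 libraries. P-values were adjusted by Benjamini-Hochberg over all genes tested within a comparison. The script was tested on simulated data. Alternatives were a pseudocount of 0.1, no filter, median-of-ratios rescaling, 1 fit over all samples, a replicate block and leaving out libraries. The members, the pathway and marker lists and the rules were chosen with earlier results of these data known. The pathway genes named were those with the largest called changes of each list (up to 3 per list and fit). Gene positions are from the GRCm38 annotation, and promoters, for 5 of the 7 measured genes, from RefSeq on GRCm38.p6.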

Additional observations from a re-analysis of the deposited data

How the results depend on the processing

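Of 217 member changes, 59 were called, and 40 of those kept the call and direction under every alternative run. Of the changes not called, 142 were called under no alternative. Where a change was called, as reported or under an alternative, its direction was the same in both. Reversals of changes called in neither were not counted. After median-of-ratios rescaling, members called were 4 in the Stat3 knockout (2 as reported), 4 in that of Dynll1 (7), 1 for Kdm1b (2), 1 for Thap7 (0), 1 from day 5 to 10 of DIOLs (2), 2 for DIOLs.S of day 14 against incompetent GV oocytes (1) and 0 between GV groups (1). With a pseudocount of 0.1 they were 1 for Noto (0), 1 from day 5 to 7 of DIOLs.S (2) and 3 for DIOLs.S of day 14 against GV oocytes (1). Smaller moves with that pseudocount were gains of Notch2 for Sohlh1 (1.01) and of Heyl from day 5 to 10 of DIOLs (-3.13). For Noto, 1 fit over all samples gave 1, and leaving out the Sohlh1 knockout libraries, chosen after seeing the data, gave 2. Without the DIOLs.S day 7 libraries, also chosen after seeing the data, 1 further change was called, that of Heyl from day 5 to 10 of DIOLs (-1.07). Testing without the filter on low values changed no member's call. The cause of these moves was not tested.

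Leaving out 1 library at a time gave 2 to 5 members for Stat3, 1 to 2 for Sub1, 1 to 3 for Sohlh1, 0 to 1 for Ccnk, 1 to 2 for Kdm1b and 0 to 1 for Thap7. It gave 1 to 2 from day 5 to 7 of DIOLs.S, 1 to 2 from day 5 to 10 and 0 to 1 from day 10 to 15 of DIOLs, 1 to 2 for DIOLs.S of day 14 against GV oocytes and 0 to 1 between GV groups. Smaller moves of these counts are not in this list. Among them, Notch2 between the wild-type days lost its call in some of these fits, as did Heyl for Nobox, Tbpl2 and MII DIOL. So did Heyl and Rbpj for Dynll1, and Jag1 and Rbpj in DIOLs of day 25 against incompetent GV oocytes. A lone library left in a group was assumed to vary like the other groups.

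Libraries of the same number were not paired: their deviations from the group means correlated at r from -0.18 to 0.07. With the replicate block, members called were 2 for DIOLs.S of day 14 against GV oocytes, Notch1 (-1.09) being added, and Jag1 in DIOLs of day 25 lost its call (0.99). The block changed no other member's call, and neither did a block with the DIOLs.S day 7 numbers crossed, which was chosen after seeing the data.

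Counts over all genes moved by more than 1.5 times in several small comparisons. With a pseudocount of 0.1 they went from 231 to 387 for Foxr1, 133 to 218 for Mef2b, 152 to 271 for Sfr1, 73 to 146 for Hes6, 14 to 36 for Ell3 and 62 to 133 for Tcf25. Without the Sohlh1 libraries they were 665 for Kdm1b (393), 545 for Thap7 (337), 502 for Noto (275), 482 for Foxr1, 317 for Mef2b, 330 for Sfr1, 175 for Hes6, 93 for Ell3 and 132 for Tcf25. With 1 fit they were 98 for Tcf25 and 274 from day 10 to 15 of DIOLs (422). Leaving out 1 of the libraries compared gave at the lowest 472 for Ccnk (755), 162 for Thap7, 139 for Noto, 105 for Foxr1, 59 for Mef2b, 63 for Sfr1, 29 for Hes6, 2 for Ell3, 30 for Tcf25 and 259 from day 10 to 15 of DIOLs. TPM carry no read totals, so what depth limits is unknown.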
